A study of Canis lupus familiaris with 8 samples.

Results

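The 38 genes described here encode proteins of the basement membrane, other matrix proteins, and enzymes that modify or cut the matrix. They were chosen by name, as a list, and 37 of the 38 were rows of the count table of 37952 genes. PLOD2 is not analysed here. Of the 37 genes, 22 passed the filter on low counts and were tested, 7 had at least 1 count but were too low to test, and 8 had no count in any well.

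Messenger RNA was sequenced from MDCK GII cells, an established epithelial line from dog kidney (Madin-Darby canine kidney), in 8 wells. All wells were seeded on an elastic silicone membrane coated with rat tail type I collagen at 0.05 mg/mL, in medium with 10% fetal bovine serum, so matrix protein of outside origin was under every monolayer. In 4 stretch wells the membrane was drawn down around a central pillar by vacuum, which gave an equi-biaxial strain of 18%, held for 2 hours, and 4 control wells were not strained. Replicates 1 to 4 of each group were technical replicates of a single line, distributed at random over the stretch devices, so errors and p-values measure the spread between wells and not between lines or animals.

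The basement membrane is the thin sheet of matrix on which an epithelium rests. Laminins, each built from an alpha, a beta and a gamma chain, form a network that integrins and dystroglycan bind, and a second network of type IV collagen is tied to it by nidogens and by the heparan sulfate proteoglycans perlecan and agrin. Lysyl hydroxylases and lysyl oxidases modify and crosslink collagens, and matrix metalloproteinases cut them. In the kidney, each tubule stands on such a sheet, which separates it from the interstitium.

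Total counts per well ranged from 27047358 to 32478887. The identity of the cells was checked on markers: 8 of 8 epithelial markers and 5 of 5 kidney tubule markers passed the filter, with CDH1 (E-cadherin) at 617 CPM in control wells (counts scaled to the library size after TMM normalization), while the tubule marker CDH16 was at 1.27 CPM. Of 10 fibroblast and mesenchymal markers only PDGFRA passed, 6 (COL1A2, DCN, LUM, POSTN, FAP and DPT) had no count in any well, and the list summed to 1.84 to 4.22 CPM per control well and 3.17 to 3.91 CPM per stretch well. The endothelial markers summed to at most 2.68 CPM and the immune markers to at most 6.13 CPM in any well, and PTPRC, the pan-leukocyte marker, had no count. Wells that carry the same replicate number shared part of their deviations across genes. A fit with that number as a block (the blocked fit) is therefore given beside the fit without it (the unblocked fit).

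Laminin transcripts were present for a set of chains, and others were not found. Levels of different genes are compared here as CPM per kilobase of exon. In control wells, the gamma chain LAMC1 stood highest at 76.2 ± 4.13 CPM per kilobase (mean ± SD, n = 4), followed by the beta chains LAMB1 at 50.5 ± 2.25 and LAMB3 at 46.4 ± 9.73, and by the alpha chain LAMA5 at 44.0 ± 6.38. On this scale the control wells of LAMB1, LAMB3 and LAMA5 overlapped, so their order is not firm. LAMA3 was lower, at 15.8 ± 3.31, and LAMB2 lower again at 11.1 ± 0.861. LAMA1 and LAMA4 had 0 counts in all 8 wells, which at these depths allows up to 0.0924 to 0.111 CPM per well (3 counts, counting error only). LAMA5 is the main alpha chain of laminin in mature epithelia, LAMA3 and LAMB3 are chains of laminin-332, which anchors hemidesmosomes, and LAMA1 is a chain of early basement membranes.

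**Figure D1:**
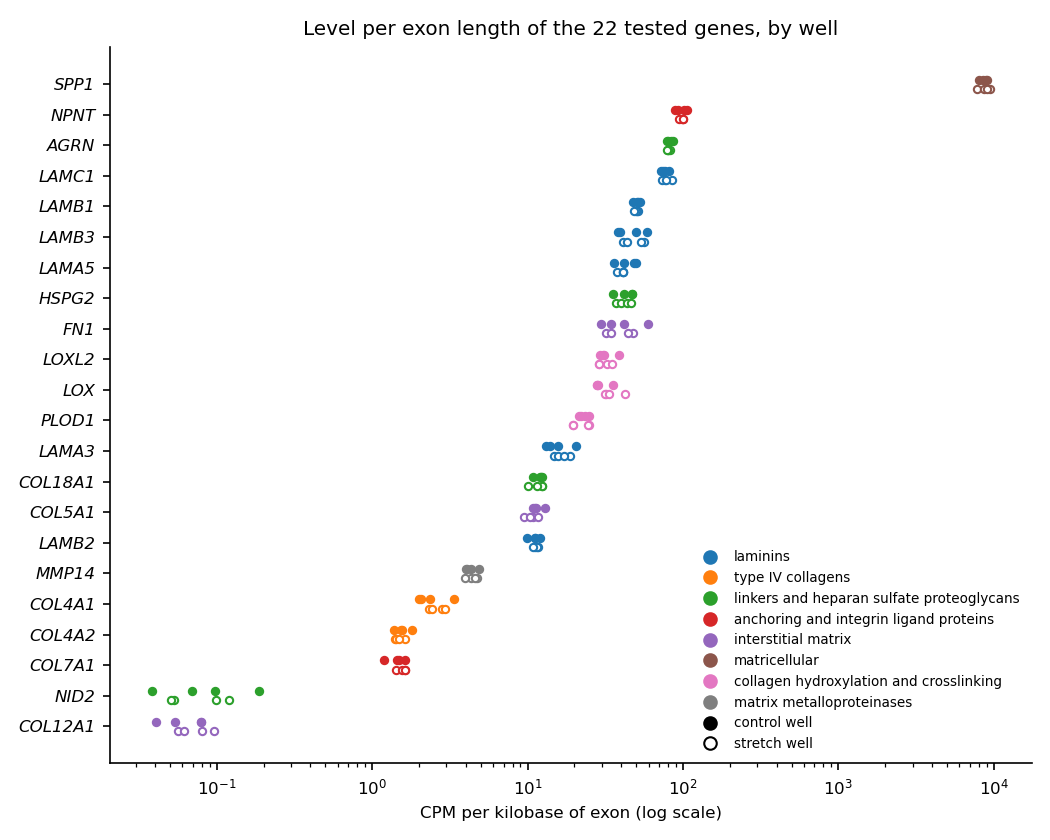
Level of each of the 22 tested genes in CPM per kilobase of exon (log axis), with filled points for the 4 control wells, open points for the 4 stretch wells and colours for the gene's role. SPP1 stands near 8604 CPM per kilobase, far above NPNT at 97.3, and NID2 and COL12A1 lie at or under 0.1 on average.

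As shares of the summed level per length, LAMA5 made up 73.7 ± 2.10% of laminin alpha transcripts in control wells and 70.8 ± 1.81% in stretch wells, and LAMA3 made up the rest (26.3 ± 2.10% and 29.2 ± 1.81%). The difference in means was larger than the SD of either group, yet the wells overlapped, with LAMA3 at 24.4 to 29.1% of the control total and at 27.4 to 31.6% of the stretch total. Pair by pair, the LAMA3 share was higher after stretch in 4 of 4 pairs, by 1.71 to 5.26 percentage points (two-sided exact permutation test, p = 0.125, the smallest that 4 pairs allow). Among beta chains, LAMB1 held 47.0 ± 4.62% in control wells, LAMB3 42.7 ± 5.89% and LAMB2 10.3 ± 1.45%. The corresponding shares in stretch wells were 45.6 ± 3.62%, 44.1 ± 4.26% and 10.3 ± 0.698%, and the differences in means were smaller than the SD of either group. The LAMB1 share was lower in 4 of 4 pairs, with differences from -2.48 to -0.20 percentage points (two-sided exact permutation test, p = 0.125). Over the 7 chains compared in this way, the adjusted p of LAMA3 and LAMB1 was 0.292 (exact permutation test, Benjamini-Hochberg).

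The type IV collagen genes lie in head-to-head pairs, and only the pair that gives the ubiquitous network was transcribed at a testable level. COL4A1 was at 2.46 ± 0.634 and COL4A2 at 1.57 ± 0.176 CPM per kilobase in control wells, far under LAMC1 and under each tested laminin chain. COL4A1 (chromosome 22, 58660825 to 58801735, minus strand) and COL4A2 (58801350 to 58971538, plus strand) have annotated start sites 385 bases apart. The annotated start sites lie 1201 bases apart for COL4A5 and COL4A6, and 17706 bases apart for COL4A3 and COL4A4. COL4A1 took 60.6 ± 4.17% of type IV collagen transcripts per length in control wells and 63.7 ± 1.71% in stretch wells, and the wells overlapped. COL4A3, COL4A4 and COL4A5, whose chains form the network of the glomerular and distal tubule basement membranes, had 0 counts in all 8 wells, and COL4A6 had 6 counts in all, in 3 wells.

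**Figure D2:**
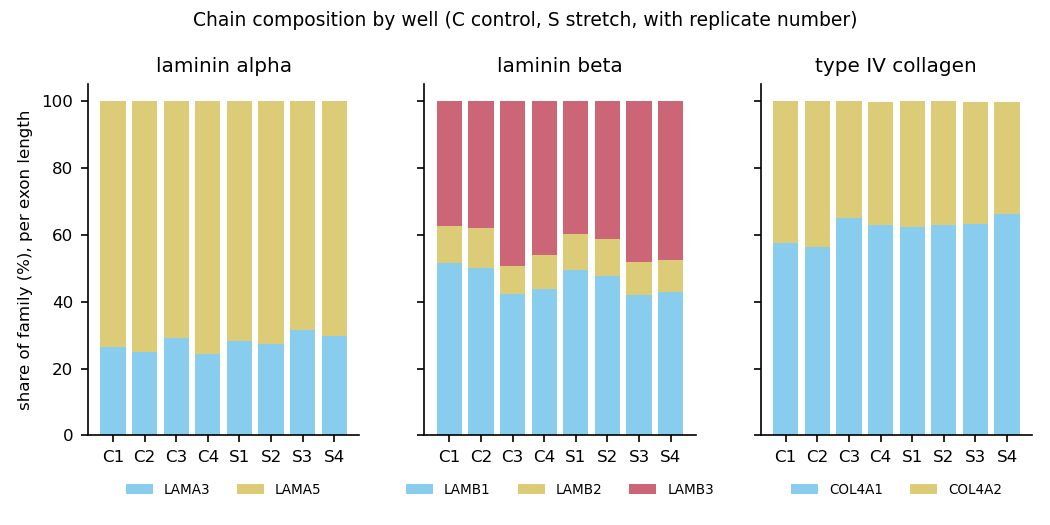
Share (%) of each chain in the summed level per exon length of its family, as stacked bars from 0 for each control (C) and stretch (S) well. LAMA5 holds 68.5 to 75.6% of the alpha chains over the 8 wells, and chains under 1% are not drawn.

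The proteins that tie the networks together were uneven. AGRN (agrin) was at 82.5 ± 3.53 CPM per kilobase in control wells and HSPG2 (perlecan) at 42.7 ± 5.44, while COL18A1, whose protein is cut to endostatin, was at 11.8 ± 0.726. The nidogens, which bridge laminin and type IV collagen, were barely counted: NID1 had 0 counts in all 8 wells and NID2 had 6 to 28 counts per well, or 0.0981 ± 0.0637 CPM per kilobase. NPNT (nephronectin), a ligand of the kidney integrin alpha-8 beta-1, was at 97.3 ± 7.93 CPM per kilobase, the highest of the tested genes on the list after SPP1. COL7A1, the collagen of anchoring fibrils, was at 1.44 ± 0.179, and FREM2, a protein of the Fraser complex, had 2 counts in all.

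SPP1 (osteopontin), a secreted phosphoprotein that integrins bind and that tubule cells are known to make, was the most abundant transcript of all 14571 tested genes in control wells, both in CPM and per length. It had 12614, 13125, 11969 and 13297 CPM in control replicates 1 to 4 and 11541, 12723, 14023 and 13387 CPM in stretch replicates 1 to 4. SPP1 alone took 1.27 ± 0.0683% of all counts in control wells, against 0.444 ± 0.0355% for the other listed genes together. SPARC, the other matricellular gene, had 3 to 8 counts per well.

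Among interstitial matrix genes, FN1 (fibronectin) was at 41.2 ± 13.0 and COL5A1 at 11.6 ± 0.981 CPM per kilobase in control wells, and COL12A1 at 0.0632 ± 0.0191. COL3A1 and TNC (tenascin-C) had 0 counts in all 8 wells. COL1A1, the gene of a chain of type I collagen, had 2 counts, both in 1 well, and COL1A2 had none, in cells that grew on added rat type I collagen. The enzymes were present at middle levels: LOXL2 was at 32.5 ± 4.37, LOX at 30.0 ± 3.77 and PLOD1 (lysyl hydroxylase 1) at 22.9 ± 1.45 CPM per kilobase. MMP14, a membrane-bound protease that cleaves collagen, was at 4.34 ± 0.392, and the secreted proteases MMP1, MMP2 and MMP9 had 2, 1 and 18 counts in all 8 wells.

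After 2 hours of strain, the measured differences from control were small. In such bulk samples, fewer cells that express a gene and less of its RNA per cell cannot be told apart. In edgeR's quasi-likelihood test in the unblocked fit, 0 of the 22 tested genes had an adjusted p under 0.05 (Benjamini-Hochberg over 14571 genes, of which 0% were called). An unadjusted p under 0.05 was found in 0 of the 22, against 579 of all 14571. DESeq2 and limma-voom in the unblocked fit also called 0 of the 22, where DESeq2 called 0.286% of all genes and limma-voom 0 genes. In the blocked fit, edgeR called 1 of the 22, LOX, which was higher, where 0.7% of all tested genes were called and 0.528% were called as higher. The median log2 change of the 22 genes was -0.0026 in the blocked fit, with 11 above 0 and 11 below, and the median over all tested genes was -0.0022. The median size of the change, whatever its sign, was 0.050 for the 22 genes and 0.059 for all. In 21 of the 22 genes the log2 change was smaller than 0.25 in size in both fits, and NID2 was the exception at -0.28 in the unblocked and -0.21 in the blocked fit, from 6 to 28 counts per well.

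**Figure D3:**
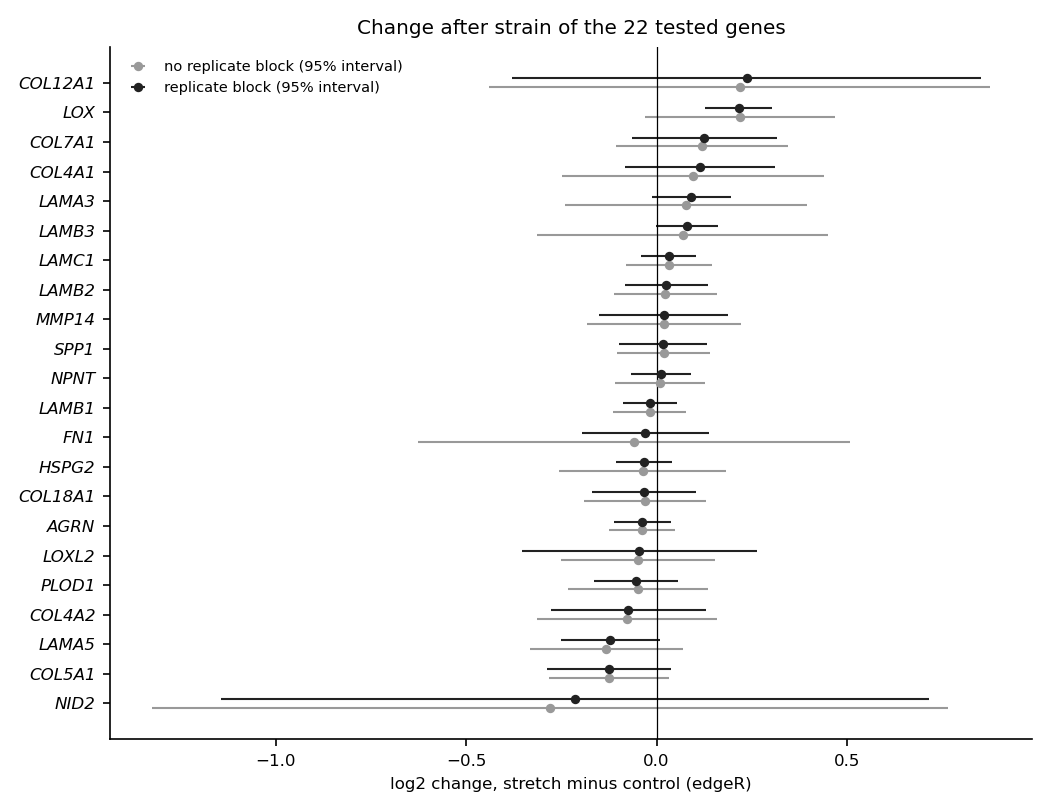
log2 change (stretch minus control) of the 22 tested genes in edgeR, as points with 95% intervals, without (grey) and with (black) the replicate number as a block. In the blocked fit, the interval of LOX runs from 0.13 to 0.30 and stays above 0, and the widest interval, of NID2, runs from -1.14 to 0.72.

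LOX encodes lysyl oxidase, the secreted copper enzyme that starts the crosslinking of collagen and elastin (chromosome 11, 11920314 to 11934905). It was at 98.1, 98.3, 124 and 97.0 CPM in control replicates 1 to 4 and at 111, 110, 149 and 117 CPM in stretch replicates 1 to 4. Control replicate 3 lay above 3 of the 4 stretch wells, so the groups overlapped, but each stretch well was above the control well of its own number. The paired log2 changes were 0.17, 0.16, 0.26 and 0.27. The fitted log2 change was 0.22 ± 0.042 (SE) in the blocked edgeR fit (adjusted p = 0.0182) and 0.22 ± 0.11 in the unblocked one (edgeR, adjusted p = 0.9995). The unblocked value was 0.11 without stretch replicate 3 and 0.31 without control replicate 3. LOX missed the threshold when the block had 2 levels, replicates 1 and 2 against 3 and 4 (edgeR, adjusted p = 0.612, where 0.398% of all genes were called). It also missed it in the blocked fit when replicate 1 or replicate 4 was left out (edgeR, adjusted p = 0.121 and 0.119). A gene on the opposite strand shares 138 exon bases with LOX and had 7 counts in all. LOXL2, a relative of LOX, had a log2 difference of -0.045 ± 0.12 in the blocked edgeR fit (adjusted p = 0.967) and was higher in pairs 1 and 2 and lower in pairs 3 and 4. For PLOD1 the log2 difference was -0.054 ± 0.052 (blocked edgeR fit, adjusted p = 0.87).

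Among laminins, the log2 differences in the blocked fit ran from -0.12 for LAMA5 to 0.09 for LAMA3, and 0 of 6 passed. LAMA5 was at 415, 479, 573 and 559 CPM in control replicates 1 to 4 and at 434, 475, 470 and 470 CPM in stretch replicates 1 to 4, so the stretch well was below its control in replicates 3 and 4 and close to it in replicates 1 and 2 (blocked edgeR fit, log2 difference -0.12 ± 0.058, adjusted p = 0.624). With no filter on low counts, LAMA5 passed in the blocked edgeR fit (adjusted p = 0.0378). LAMA3 was at 136, 145, 213 and 163 CPM in control wells and at 155, 162, 196 and 180 CPM in stretch wells. LAMB3, its partner chain, was at 282, 289, 434 and 369 CPM in control wells and at 306, 323, 418 and 395 CPM in stretch wells. For LAMA3 and LAMB3 alike, the stretch well was higher in pairs 1, 2 and 4 and lower in pair 3. Their log2 changes in the blocked fit were 0.09 ± 0.049 and 0.08 ± 0.039 (edgeR, adjusted p = 0.659 and 0.59). Without replicate 3, LAMA3 was higher by 0.16 (log2) and passed in the blocked edgeR fit (adjusted p = 0.0358). LAMA3 shares exon bases with an opposite-strand gene that had 526 counts in all, against 40103 for LAMA3. LAMB2 shares 104 exon bases on the same strand with CCDC71, which had 2719 counts in all, against 16274 for LAMB2. LAMC1, LAMB1 and LAMB2 had log2 differences of 0.03, -0.02 and 0.03 in the blocked fit, with 95% intervals inside -0.089 and 0.14.

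For several of these genes, wells of different replicate number differed by more than the stretch and control means did. FN1 was at 240, 280, 481 and 340 CPM in control replicates 1 to 4, a 2-fold range, and at 260, 280, 385 and 361 CPM in stretch replicates 1 to 4. The log2 difference of FN1 was -0.03 in the blocked fit, with an SE of 0.071 against 0.24 in the unblocked fit. In 6 of the 22 genes (LAMA3, LAMB3, LAMC1, COL4A2, FN1 and LOX), replicate 3 was the highest well of both groups. Other genes were highest in another number of both groups: LAMB1, PLOD1 and MMP14 in replicate 1, LAMB2 and COL18A1 in replicate 2 and HSPG2 in replicate 4. The share of all tested genes that were highest in replicate 3 of both groups was not counted, so the 6 cannot be called unusual. In 4 of the 22 (LAMB3, LAMA3, COL4A1 and FN1), stretch was higher in pairs 1, 2 and 4 and lower in pair 3, a pattern found in 6.53% of all tested genes. These groupings were made after the values had been seen. Why wells of different replicate number differed was not tested.

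**Figure D4:**
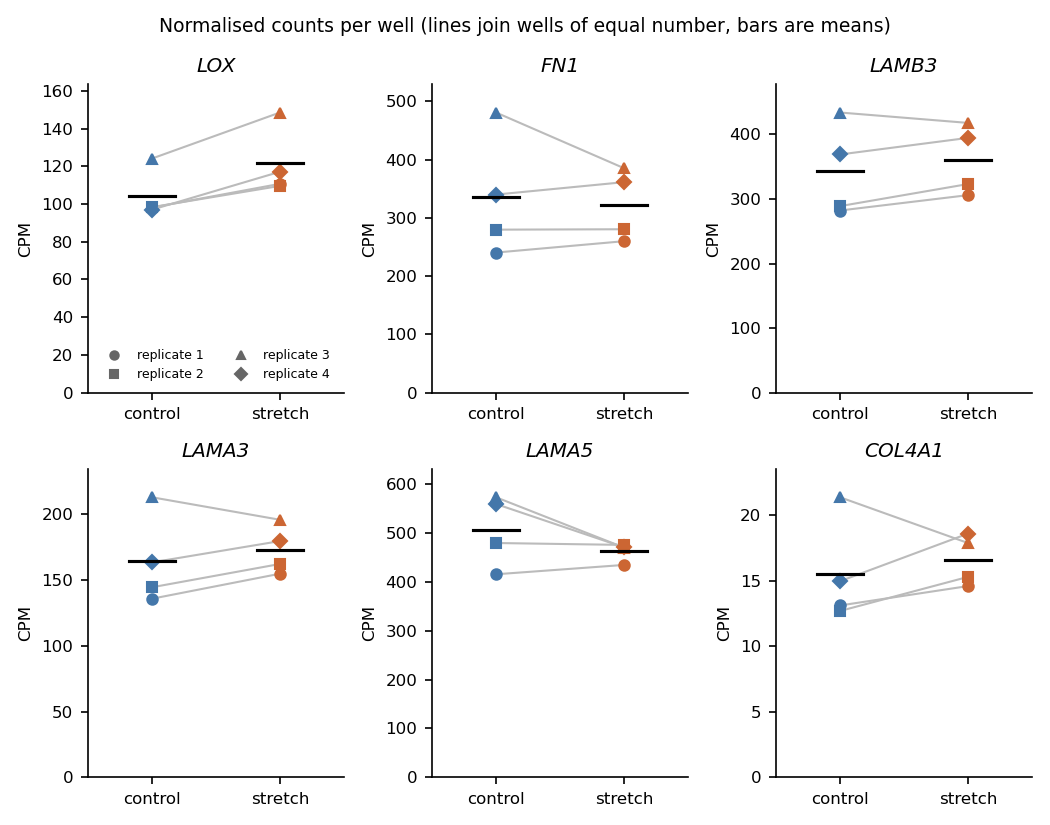
CPM per well (axis from 0) for 6 genes, with marker shapes for replicates 1 to 4, grey lines joining wells of equal number and black bars at group means. LOX is higher after stretch in all 4 pairs, while FN1, LAMB3, LAMA3 and COL4A1 are lower in pair 3 and higher in pairs 1, 2 and 4.

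COL4A1 and COL4A2 did not pass. COL4A1 was at 13.1, 12.7, 21.4 and 14.96 CPM in control wells and at 14.6, 15.3, 17.9 and 18.6 CPM in stretch wells, with a log2 change of 0.11 ± 0.093 in the blocked edgeR fit (adjusted p = 0.837). That value ranged from 0.046 without replicate 4 to 0.25 without replicate 3, and leaving out 1 well in the unblocked fit gave 0.014 to 0.29. The log2 difference of COL4A2 was -0.074 ± 0.096 (blocked edgeR fit, adjusted p = 0.918). HSPG2, AGRN and COL18A1 had log2 differences of -0.032, -0.037 and -0.033 in the blocked fit, and their 95% intervals lay between -0.17 and 0.10. Those of NPNT and COL7A1 were 0.012 and 0.13, and that of SPP1 was 0.016 with an interval from -0.099 to 0.13. COL5A1 was at -0.12 on this scale (interval -0.29 to 0.038), and MMP14 at 0.019 (interval -0.15 to 0.19). COL12A1 had a log2 difference of 0.24 and was higher in 4 of 4 pairs, from 15 to 30 counts per well, with an interval from -0.38 to 0.85. Only LOX and COL12A1 of the 22 were higher in 4 of 4 pairs, against 8.45% of all tested genes, and 0 were lower in 4 of 4 pairs, against 7.84%. In 0 of the 22 did the groups not overlap, against 2.55% of all tested genes.

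Of 105 related genes (other basement membrane and matrix proteins, collagen-modifying enzymes, proteases and inhibitors, and matrix receptors), 102 were in the table and 72 were tested. In the unblocked fit, 0 of the 72 passed in edgeR, where 0% of all tested genes passed. An unadjusted p under 0.05 was found in 2 of the 72, against 579 of all 14571 tested genes. In the blocked edgeR fit 3 of the 72 passed, all higher: THBS1, SDC4 and TIMP3. That fit called 0.7% of all tested genes, and 0.528% as higher. THBS1 (thrombospondin-1, a matricellular glycoprotein) was at 720, 737, 649 and 658 CPM in control replicates 1 to 4 and at 906, 1023, 1047 and 845 CPM in stretch replicates 1 to 4. All stretch wells were above all control wells, and the log2 change was 0.46 ± 0.053 in the blocked edgeR fit (adjusted p = 0.00311) and 0.47 ± 0.069 without (edgeR, adjusted p = 0.0937). When replicate 2 was left out, THBS1 did not pass in the blocked edgeR fit (adjusted p = 0.0585). The exons of THBS1 overlap those of FSIP1 on the opposite strand, which had 144 counts in all. SDC4 (syndecan-4, a heparan sulfate proteoglycan of focal adhesions that binds fibronectin) went from 102 ± 7.78 to 124 ± 6.45 CPM, again with no overlap, a log2 change of 0.29 ± 0.043 in the blocked fit and 0.29 ± 0.062 without (edgeR, adjusted p = 0.0023 and 0.371). The groups did not overlap in 2.55% of all tested genes. Of the 72, P3H4 also had no overlap, with all stretch wells lower (blocked edgeR fit, log2 difference -0.051, adjusted p = 0.87). Unblocked DESeq2 called THBS1 and SDC4 as higher (adjusted p = 2.4e-05 and 0.017), where it called 0.228% of genes as higher and 0.0571% as lower.

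TIMP3, the inhibitor of metalloproteinases that binds to the matrix, was at 19.5, 19.1, 38.9 and 28.2 CPM in control wells and at 28.7, 33.0, 51.5 and 35.1 CPM in stretch wells. The groups overlapped through control replicate 3, and each stretch well was above the control well of its number. Its log2 change was 0.51 ± 0.071 in the blocked fit and 0.49 ± 0.28 without (edgeR, adjusted p = 0.00217 and 0.9995). The unblocked value was 0.29 without stretch replicate 3 and 0.73 without control replicate 3, and TIMP3 missed the threshold when the block had 2 levels (edgeR, adjusted p = 0.504). In each list, the tested genes with the next smallest p had adjusted p above 0.4 in edgeR in the blocked fit. Their log2 differences in the blocked fit were -0.52 for EMILIN1, 0.098 for BCAM, -0.088 for MMP15, 0.096 for P4HA1, -0.12 for COLGALT1, 0.16 for TINAGL1 and -0.16 for VWA1, and none passed.

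**Figure D5:**
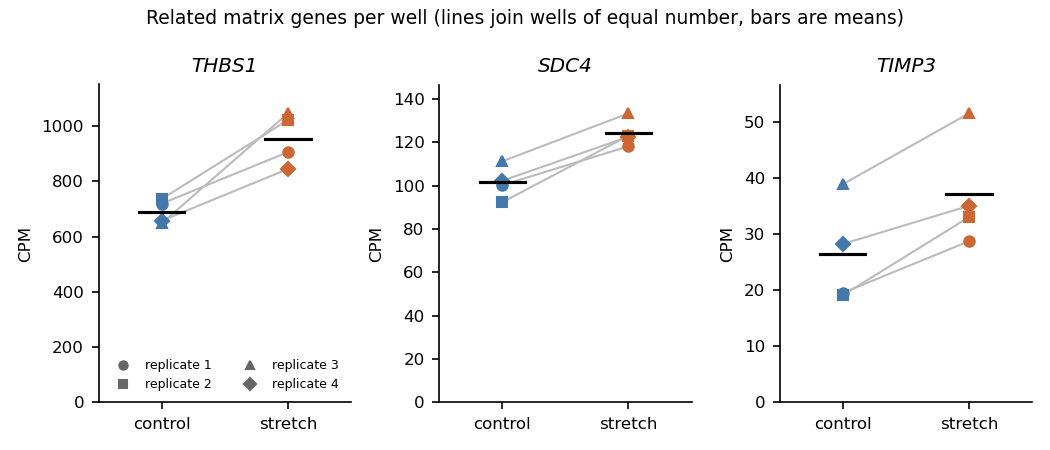
CPM per well (axis from 0) of THBS1, SDC4 and TIMP3, with lines joining wells of equal number and black bars at group means. The stretch well is the higher in all 4 pairs of each gene, and only in TIMP3 does a control well, replicate 3 at 38.9 CPM, lie above stretch wells.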

How the data were processed

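The authors' deposited table holds whole-number read counts for each gene, summed over its exons and not normalized, and the file's name credits featureCounts. The submitters' processing notes name FastQC 0.11.8, Trim Galore 0.6.5, STAR 2.7.3a and Subread, and the labels name a stranded TruSeq polyA library. The strand setting, the genome build and the treatment of reads shared between genes are not given in the sources used here. All 37 listed genes in the table had the same positions as in RefSeq's gene table of UU_Cfam_GSD_1.0, the source of chromosome names. Exon lengths are the authors' deposited lengths.

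Counts were tested in R 4.3.3 with edgeR 4.0.16 (glmQLFit, robust, and glmQLFTest) after filterByExpr (minimum count 10, minimum total 15) and TMM scaling, with an intercept and a stretch term, Benjamini-Hochberg adjustment over 14571 genes and a threshold of 0.05. CPM used the same TMM factors. The SE is the log2 change divided by the root of the F statistic. The code was tested on simulated data. Wells of a group differed by a chi-square of at least 5.56 per degree of freedom, so all 8 were kept.

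Pairing was taken from the replicate numbers in the sample titles. The deviations of same-numbered wells from their group means correlated at 0.428, 0.166, 0.246 and 0.243 for numbers 1 to 4, all over 0.1. The numbers were therefore taken to pair the wells, and the fit with the replicate block is given beside the fit without it. Wells of different number were not correlated, so these values do not show that the number itself pairs the wells. Alternatives were DESeq2 1.42.0, limma-voom (limma 3.58.1), other scalings and filters, blocks, and leaving out wells. The combinations with the replicate block and the subsets of 2 numbers, and the paired comparison of chain shares, were chosen after seeing the data. The listed genes, their related lists and the markers were chosen with earlier results of these data known. Every listed gene is named, and of the related lists the genes that passed and the 2 with the smallest p with the block in each. Figures were drawn with matplotlib 3.10.9.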

Additional observations from a re-analysis of the deposited data

Results flagged for a closer look

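Dixon's test at the 95% level, which compares a well's gap to its nearest neighbour with the whole range, picked out 1 well in 3 of 50 groups of 4. Chance gives about 2.5 of 50. For LOX, control replicate 3 had 124.1 CPM against 97.0 to 98.3 in the other control wells. For LAMA5, stretch replicate 1 had 434.3 CPM against 469.8 to 475.2. For NPNT, stretch replicate 3 had 426.9 CPM against 451.7 to 453.6.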

How the results depend on the processing

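Without the block, the count of all called genes was 0 in edgeR, also with 3 other scalings or at least 10 counts required in every well, and 0 with limma-voom. It was 40 with DESeq2 and 11 without a filter. With the replicate block it was 102 (edgeR), 145 (DESeq2), 122 (limma-voom), 105 (DESeq2 size factors), 111 (library size only), 97 (at least 10 counts in every well) and 448 (no filter), and with the block of 2 levels 58. Without replicate 1, 2, 3 or 4 the blocked count was 43, 67, 186 or 74. In fits without the block, the count was 51 within replicates 1 and 2 alone and 25 within 3 and 4 alone. Leaving out 1 well without the block gave 0 to 12 genes, the highest without control replicate 3. Of the listed genes, 1 passed with the replicate block (LOX) under each of these tools, scalings and the stricter filter, 2 without a filter (LOX and LAMA5), and 0 to 2 when a replicate was left out. The block changed no other call among the listed genes in edgeR with the default filter. The combined block settings and the subsets of 2 replicate numbers were chosen after seeing the data. The median log2 change of the list ran from -0.015 to 0.024 over all alternatives.

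Small log2 changes turned direction under some alternatives, and the cause was not tested. Within replicates 1 and 2 alone they were 0.024 for LAMA5, -0.030 for LAMB2, 0.027 for AGRN, 0.10 for COL18A1, -0.032 for COL7A1, -0.065 for NPNT, 0.011 for COL5A1, 0.054 for FN1, -0.085 for SPP1, 0.034 for PLOD1 and 0.17 for LOXL2. Within replicates 3 and 4 alone they were 0.0020 for LAMB1 and 0.47 for NID2. With the replicate block and replicate 3 left out they were -0.035 for LAMB2, -0.011 for NPNT, 0.067 for FN1, -0.055 for SPP1, 0.081 for LOXL2 and -0.029 for MMP14. With replicate 2 left out they were 0.39 for NID2 and -0.0060 for MMP14, and with replicate 4 left out 0.048 for COL18A1 and -0.017 for NPNT. Leaving out 1 well without the block gave ranges of -0.00094 to 0.23 (LAMA3), -0.046 to 0.0053 (LAMB1), -0.024 to 0.070 (LAMB2), -0.011 to 0.20 (LAMB3), -0.0091 to 0.070 (LAMC1), -0.55 to 0.25 (NID2), -0.11 to 0.021 (HSPG2), -0.071 to 0.034 (COL18A1), -0.033 to 0.054 (NPNT), -0.19 to 0.17 (FN1), -0.022 to 0.072 (SPP1), -0.10 to 0.0077 (PLOD1), -0.10 to 0.050 (LOXL2) and -0.015 to 0.083 (MMP14).

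Without division by exon length, the shares in stretch wells were 27.2% for LAMA3 and 72.8% for LAMA5 among alpha chains, and 41.3% for LAMB1, 9.52% for LAMB2 and 49.2% for LAMB3 among beta chains. In control wells LAMB1 was then at 42.7% and LAMB3 at 47.7%, so LAMB3 and not LAMB1 was the highest beta chain in both groups. Per length, too, LAMB3 was above LAMB1 in replicates 3 and 4 of both groups. Depth limits COL12A1 and NID2, which had 30 counts or fewer per well.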

Other observations

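Levels per exon length differed widely within the related lists in control wells. The genes given here were chosen after their values were seen. Of the collagen folding and modification genes, PPIB, a prolyl isomerase of the endoplasmic reticulum, was at 571 ± 11.2 CPM per kilobase, P4HB, a subunit of prolyl 4-hydroxylase, at 519 ± 20.2, and SERPINH1, the collagen chaperone HSP47, at 123 ± 3.46 (n = 4 each). PPIB shares 539 exon bases with SNX22 on the opposite strand, which had 896 counts in all. Other tested genes of that list were lower. LOXL1 at 72.8 and P4HA2 at 64.2 came next, while CRTAP at 8.43 and P3H1 at 8.07 were among those far lower. COL5A2 was at 253 ± 19.6 CPM per kilobase, the highest of the collagen genes on these lists, and COL17A1, the transmembrane collagen of hemidesmosomes, was at 122 ± 16.3, while COL5A1 was at 11.6 ± 0.981 and COL4A1 at 2.46 ± 0.634. Among receptors, ITGB1 was at 155 ± 7.36, ITGB4, the partner of laminin-332 in hemidesmosomes, at 91.4 ± 16.8 and DAG1 (dystroglycan) at 47.7 ± 1.35. ITGA8, the alpha chain of the integrin that binds NPNT, had 0 counts in all 8 wells. None of the tested genes in this paragraph passed in edgeR with or without the replicate block.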
